A study of Saccharomyces cerevisiae with 12 samples.

Results

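Gene expression in untreated anc1Δ cells was compared with that in untreated wildtype cells across the whole genome of budding yeast, on 3 arrays of each strain out of the 12 arrays in the series. All 9275 probe sets of the Affymetrix YG-S98 array other than its 60 controls were tested, and 5656 genes were read, each from its brightest probe set. No gene was selected by its values, so every gene that could be named was a member of the comparison. Both strains are listed with the MATa mating type in the BY4741 background, whose HIS3, LEU2, MET15 and URA3 genes are deleted in whole or in part, and both were grown in rich glucose medium to mid-log phase with no MMS. The anc1 strain was null for ANC1, with the gene replaced by URA3 in the study's list of strains and by a G418 resistance marker in its account of the RNA samples. The methods describe 3 separate colonies of each strain, and no source used here says whether the anc1 colonies trace to 1 deletion event.

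Anc1, also called Taf14, is a small protein with a YEATS domain, a fold that reads acylated lysines on histone tails. It is a shared subunit of the general transcription factors TFIID and TFIIF, of the SWI/SNF, RSC and INO80 chromatin remodellers and of the NuA3 histone acetyltransferase, and the study counts it in Mediator too. In rich glucose medium growing yeast normally keep the genes for stress defence, respiration and poor carbon sources low and those for growth and division high.

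Levels are given as RMA intensity, the normalized brightness of a probe set, unlogged, and differences as log2 of anc1Δ over wildtype. Arrays of 1 strain correlated at 0.988 to 0.993 for wildtype and 0.993 to 0.997 for anc1Δ over all probe sets, and arrays of different strains at 0.951 to 0.964. The wildtype arrays were the more variable, with a median standard deviation of 0.168 on the log2 scale against 0.114 for anc1Δ. In the genes higher in anc1Δ, wildtype replicate 3 held the lowest wildtype value for 52.0%, against 34.1% of all genes. For those at least 4-fold higher the share was 66.7%. Among the genes lower in anc1Δ, wildtype replicate 1 was the lowest wildtype array for 57.4%, against 39.1% of all genes. The ratio of the 3′ to the 5′ actin control, a measure of RNA length, was 1.47 to 1.68 in wildtype and 1.74 to 1.85 in anc1Δ, and that of the SPT15 control overlapped at 3.57 to 4.16 and 3.87 to 4.65. The part of RNA length in the results was not tested. As a check of mating type, the 7 MATa genes measured summed to an intensity of 11923 to 13551 in wildtype and 1895 to 2034 in anc1Δ, and the 4 MATα genes to 151 to 184 and 140 to 170. Of 10 haploid-specific genes, which cells holding both mating types shut off, 7 were lower in anc1Δ and 1 higher (median -1.41). The markers of the listed mating type were thus low on the anc1Δ arrays, with none of the MATα genes called higher with all 6 arrays. Taken singly, all 4 MATα genes had strains that did not overlap, as did 60.7% of all genes. Of these 4, 1 was higher in anc1Δ (0.55) and the rest were lower. Without anc1Δ replicate 1, 1 of the 4 MATα genes was called higher. Without wildtype replicate 2 or anc1Δ replicate 2, 1 was called lower. The part of mating type or ploidy was not tested.

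ANC1 itself (TAF14 on the array) had intensities of 261, 356 and 237 on the wildtype arrays and 6.87, 15.7 and 8.71 on the anc1Δ arrays. Its mean lay at the 71.5th percentile of all probe sets in wildtype and the 6.24th in anc1Δ (adjusted p = 1.3e-05). The anc1Δ values lie near the floor of the array, so no exact size is given for the fall. The genes deleted in both strains gave a second check. URA3 read 9.28, 9.06 and 11.9 in wildtype and 9.44, 17.2 and 9.79 in anc1Δ, so the strains overlapped, and its mean lay at the 7.19th and the 8.43rd percentile. MET17, the current name of MET15, read 9.37 to 13.3 and 8.45 to 11.5. A URA3 control on the array read 8.26 to 11.1 in wildtype and 7.57 to 12.6 in anc1Δ. URA3 was thus not seen above the level of a strain that lacks it, which goes against the URA3 replacement and was not checked further. HIS3, which the background carries as a partial deletion, read 755 to 942 and 805 to 820, and LEU2 read 41.4 to 64.0 and 39.7 to 64.5.

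**Figure D1:**
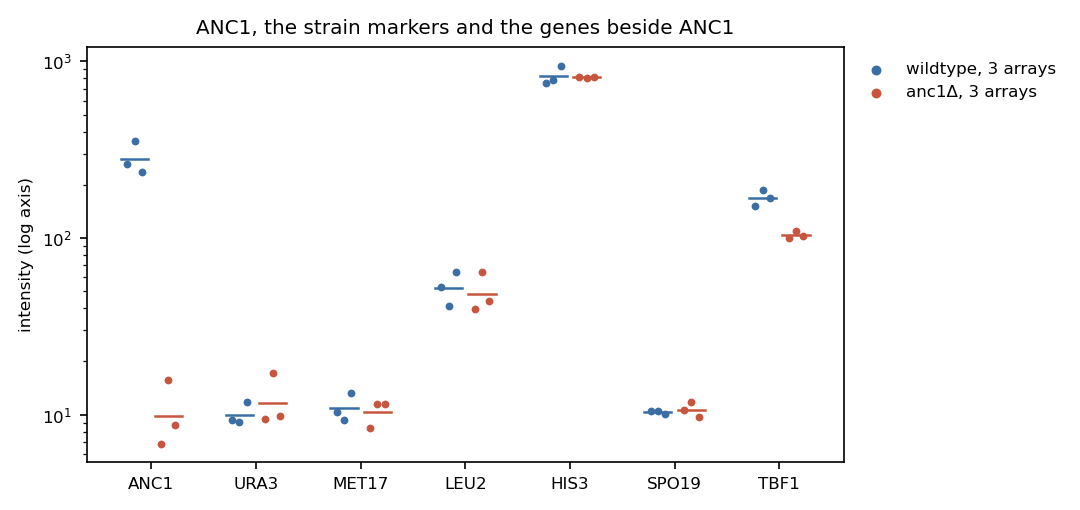
Intensity (log axis) of ANC1, of the genes deleted in both strains and of the genes on either side of ANC1 on each of the 3 wildtype and 3 anc1Δ arrays, with bars at the geometric means. ANC1 is separated between the strains, URA3 and MET17 lie near the floor in both, and TBF1 is lower in anc1Δ.

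Of 4 genes on each side of ANC1 on chromosome XVI, none was called on one side. On the other side TBF1, HHO1 and KAP120 fell. SPO19, a gene of spore formation on the side without calls, read 10.1 to 10.4 in wildtype and 9.76 to 11.8 in anc1Δ. These values lie near the floor, so a fall could not have been seen. RPL5, COX11 and RDS2, further along that side, had log2 differences of -0.30, -0.24 and -0.27. TBF1, an essential DNA-binding protein of subtelomeres and snoRNA promoters on the other side, fell from 152, 186 and 169 to 99.9, 109 and 102 (log2 difference -0.70, adjusted p = 0.0019). HHO1, the linker histone and the second gene along, fell from 550, 636 and 595 to 304, 312 and 295 (-0.96, adjusted p = 0.00027). NAN1, the next gene, was not called (-0.10), and KAP120 after it fell by 0.68.

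Of the 5656 genes, 629 were called higher in anc1Δ and 699 lower, with a call needing both 1.5-fold and a Benjamini-Hochberg adjusted p below 0.05 in limma, a linear model fitted across all probe sets. These are 11.1% and 12.4% of the genes, together 23.5%, and they are the background against which each group below is read. The median log2 difference of all genes was -0.10, and with each array centred on its median 689 genes were higher and 589 lower. The 3 arrays of one strain lay wholly on one side of the other for 60.7% of all genes, and for 1323 of the 1328 called.

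Rises and falls were alike in number but not in size. At least 2-fold there were 309 genes higher and 166 lower, at least 4-fold 87 and 26, and at least 8-fold 29 and 8. Among probe sets that name no gene in the array annotation, 351 of 2443 were higher and 127 lower.

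**Figure D2:**
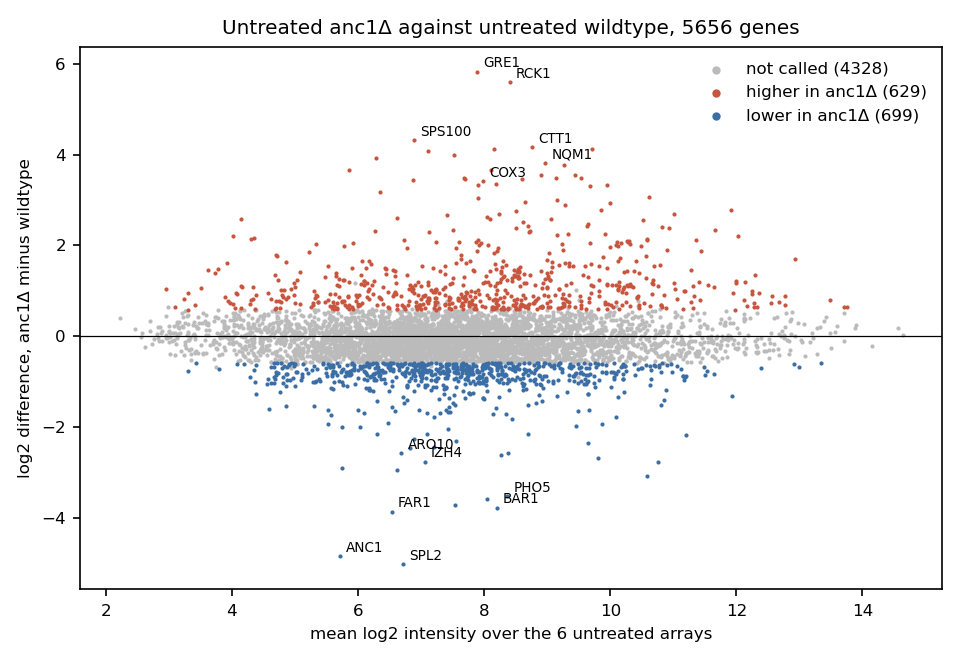
Log2 difference of each of the 5656 genes (anc1Δ minus wildtype) against its mean log2 intensity over the 6 arrays, with 629 genes called higher, 699 called lower and the rest grey. The rises reach 5.83 and the falls -5.03, and the points beyond 2 on either side are mostly rises.

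GRE1, SPS100 and SIP18 were among the 20 largest rises. GRE1, a hydrophilin, which is a very water-soluble protein of desiccated cells, read 32.1, 28.1 and 35.0 in wildtype and 1792, 1779 and 1799 in anc1Δ (log2 difference 5.83 ± 0.11, SE, adjusted p = 1.0e-07). SPS100, a spore wall protein, rose from 26.6, 26.3 and 26.1 to 519, 511 and 554. SIP18, another hydrophilin, rose from 21.0, 17.8 and 21.8 to 307, 296 and 314. In all 3 genes both strains were tight across their arrays and lay far apart. Of the 8 hydrophilins measured, 7 rose and none fell, with a median of 1.86.

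In other large rises the wildtype arrays lay further apart. RCK1, a kinase of the oxidative stress response, read 103, 63.2 and 17.9 in wildtype against 2540, 2367 and 2190 in anc1Δ. Its log2 difference of 5.60 became 4.87 without wildtype replicate 3. FMP16, a protein found in mitochondria, read 333, 248 and 97.1 against 3442, 3358 and 3630. RTN2, a reticulon of the endoplasmic reticulum, read 47.6, 46.3 and 16.8 against 591, 566 and 543, and CTT1, the cytosolic catalase, 165, 108 and 61.1 against 1881, 1757 and 1862. In each of these the wildtype values fell in order from replicate 1 to 3, and every anc1Δ array lay above every wildtype array. The same falling order held for 49 of the 87 genes at least 4-fold higher and 231 of the 629 called higher. Over all 5656 genes it held for 1031.

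Of 35 general stress genes, 34 rose and none fell, with a median of 2.14 against -0.10 for all genes. Their summed intensity was 37998, 35870 and 24125 on the wildtype arrays and 117977 to 122018 on the anc1Δ arrays. The share of the stress genes called did not depend on wildtype replicate 3, since 34 were also called without it. The rise was not shared by all chaperones. Of 24 chaperone genes, 12 rose and none fell. The inducible SSA4 and SSA3, cytosolic Hsp70 proteins, rose by 2.78 and 2.08, while the constitutive SSA1 read 12546 to 14983 in wildtype and 16331 to 16759 in anc1Δ and SSA2 7989 to 8901 and 6157 to 6617, and neither was called. The inducible Hsp90 gene HSP82 rose by 1.15, and its constitutive copy HSC82 overlapped between the strains at 4719 to 6132 and 4763 to 5659. These copies are close in sequence, and how far their probes share RNA was not tested.

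Defence against oxidants was likewise split. Of 30 genes, 11 rose and 3 fell. The peroxiredoxin TSA2 rose from 228, 199 and 125 to 1030, 901 and 967 (log2 difference 2.44), whereas its abundant relative TSA1 read 5980 to 6801 and 7430 to 7599 and was not called. Both superoxide dismutases rose, SOD2 of the mitochondrial matrix by 1.24 and SOD1 by 0.94, as did the glutathione transferases GTT2 by 1.55 and GTT1 by 1.42. GSH1, the first enzyme of glutathione synthesis, fell from 178, 199 and 114 to 89.6, 66.3 and 70.8 (-1.09), and YHB1, which removes nitric oxide, fell by 0.93.

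In the pentose phosphate pathway, which makes NADPH and pentoses from glucose 6-phosphate, 5 of 13 genes rose and 4 fell, and 4 of the rises and 3 of the falls lay in isozyme pairs. For 6-phosphogluconolactonase, SOL4 rose from 1093, 715 and 497 to 3108, 3335 and 3188 while SOL3 fell from 704, 628 and 771 to 229, 256 and 249. For transaldolase, NQM1 rose from 143, 136 and 121 to 2127, 1635 and 1900 while TAL1 fell from 940, 1284 and 1128 to 597, 465 and 553. In both enzymes the arrays of the strains did not overlap for either gene, and the log2 difference was 2.14 for SOL4, -1.51 for SOL3, 3.82 for NQM1 and -1.05 for TAL1.

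The same order held for transketolase, where TKL2 rose from 52.4, 45.9 and 41.3 to 751, 738 and 707 (3.98). TKL1 read 2144, 2491 and 2194 against 1650, 1337 and 1577, a log2 difference of -0.58 that just missed the fold limit and was called without wildtype replicate 1 or 3 or anc1Δ replicate 1 or 3 (-0.63, -0.61, -0.64 and -0.61). For 6-phosphogluconate dehydrogenase, GND2 rose from 87.5, 76.1 and 64.0 to 724, 688 and 882 (3.34), and GND1 fell by 0.62, a call lost without anc1Δ replicate 2 (-0.51). ZWF1, the first enzyme of the pathway, read 805, 802 and 604 against 1169, 1120 and 1020 (0.59), a call lost without wildtype replicate 3 (0.46) or anc1Δ replicate 1 or 2 (0.55 and 0.58). RKI1, the ribose phosphate isomerase with no second copy, fell from 267, 297 and 274 to 115, 105 and 108 (-1.35). Just outside the pathway, phosphoglucomutase showed the same split, as PGM2 rose by 1.16 and PGM1 fell from 577, 511 and 446 to 163, 173 and 171 (-1.59).

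**Figure D3:**
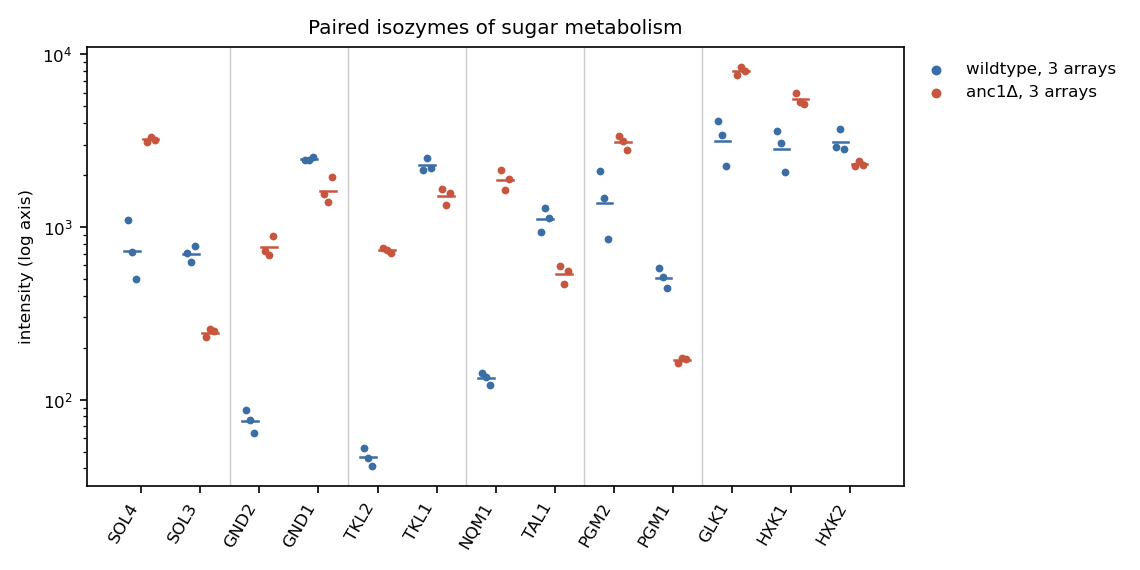
Intensity (log axis) of isozyme pairs of the pentose phosphate pathway, of phosphoglucomutase and of the glucose kinases on each of the 3 arrays of wildtype and anc1Δ, with bars at the geometric means. In each of the 5 pairs from SOL4 to PGM1 the first gene is higher in anc1Δ and the second is lower, with no overlap between the strains.

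Genes of glucose entry were higher as well. Of 18 genes of hexose transport and its regulators, 11 rose and none fell, with a median of 0.70. HXT5, a transporter of slow-growing cells, rose from 72.3, 55.1 and 59.1 to 641, 727 and 702 (3.48). HXT1, the low-affinity transporter of glucose-rich cells, also rose, from 1922, 1763 and 1727 to 3968, 4135 and 4192 (1.19). The high-affinity transporters were lowest on wildtype replicate 3, HXT2 reading 4504, 4037 and 2157 against 6300, 6191 and 5192, and without that array only 6 of the 18 genes were called. HXT2 (0.79, or 0.46 and not called without that array) also lost its call without any 1 of the anc1Δ arrays or with all 12 arrays in the fit (adjusted p = 0.066 to 0.11). HXT6 and HXT7 are nearly identical and were not told apart. Among the kinases that trap glucose, GLK1 rose by 1.34 and HXK1 by 0.95, while HXK2, the main hexokinase of glucose-grown cells, read 2833 to 3679 in wildtype and 2261 to 2404 in anc1Δ and was not called.

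The nuclear genes of respiration rose in part. Of 23 genes of the respiratory chain, 8 rose and none fell (median 0.50), and of 27 genes of acetate oxidation and gluconeogenesis 11 rose and none fell (0.42). NDE2, an external NADH dehydrogenase, rose from 39.2, 39.8 and 40.4 to 238, 263 and 226 (2.60). PCK1, the committed step of gluconeogenesis, rose by 2.34, and the malate dehydrogenase MDH2 by 1.90. CYC7, the low-oxygen form of cytochrome c, read 327, 239 and 70.5 against 541, 573 and 566, and its log2 difference of 1.67 became 1.00 without wildtype replicate 3 and lost its call without any 1 of the anc1Δ arrays (adjusted p = 0.058 to 0.068). HAP4, the activator of respiratory genes, rose by 1.28.

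The genes carried by the mitochondrial genome itself rose more widely. Of 19 measured, 17 rose and none fell, with a median of 1.46, against 10.9% higher and a median of -0.10 for nuclear genes. COX3, a core subunit of cytochrome oxidase, read 77.7, 73.8 and 79.7 in wildtype and 886, 735 and 862 in anc1Δ (log2 difference 3.42 ± 0.11, SE, adjusted p = 5.6e-07). COB, cytochrome b, rose from 141, 173 and 180 to 1166, 780 and 899 (2.51). ATP6, a subunit of the ATP synthase, rose from 129, 170 and 159 to 665, 457 and 520 (1.83). In all 3 the strains were far apart, and in all 19 genes anc1Δ replicate 2 was the lowest of the anc1Δ arrays.

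COX1 and OLI1 read high in both strains and rose less at their brightest probe sets. COX1 rose from 2873, 3224 and 2906 to 6701, 6681 and 7049 (1.18). Its 3 probe sets were all called and ran from 1.18 to 2.70. OLI1 rose from 5132, 5062 and 5164 to 9738, 9056 and 9750 (0.89). SCEI, the homing endonuclease encoded in the intron of the large mitochondrial rRNA, rose by 2.30. Of the 19 genes, 11 lay under an intensity of 20 on every wildtype array, and with the dimmest 25% of probe sets left out 8 of 8 rose. COX1, COB, COX2, COX3, ATP6, ATP8, OLI1 and VAR1 are the proteins the organelle makes, and all 8 were called. Yeast mitochondrial mRNAs have no poly(A) tails, and the methods name Affymetrix labelling protocols for eukaryotes without giving the primer. OLI1 has a second, lower-reading probe set, and the mean of both was not called (0.47). The genes of the mitochondrial ribosome are nuclear, and of 66 measured none rose and 7 fell, with a median of -0.22.

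RNAs that carry no protein also rose, a comparison chosen after their values were seen. Of 91 tRNA genes 66 rose and none fell, and the log2 difference was above 0 for all 91, with a median of 0.80. Their median intensity was 202, 161 and 229 on the wildtype arrays and 488, 455 and 472 on the anc1Δ arrays. Only 3 of the 91 were read from probe sets with no mark of sharing, so most values stand for a family of near-identical tRNAs and not for 1 gene. Without wildtype replicate 2, the lowest wildtype array, 53 were called.

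Of 57 snoRNAs, which guide modification of rRNA, 19 rose and none fell (median 0.30), although 2 fell without wildtype replicate 1 and 1 without anc1Δ replicate 1, and of the 4 spliceosomal RNAs measured 3 rose. SNR19, the U1 RNA, rose from 81.6, 83.5 and 81.2 to 173, 167 and 165 (1.04). RPR1, the RNA of RNase P, rose from 1070, 967 and 977 to 1553, 1599 and 1642 (0.67), and TLC1, the telomerase RNA, from 211, 238 and 228 to 370, 343 and 338 (0.64). The 2 probe sets of TLC1 disagreed, and their mean was not called (0.08). Protein-coding nuclear genes, by contrast, were 9.42% higher and 12.8% lower with a median of -0.12.

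Ribosomal RNA was not uniform. RDN25-1, the large rRNA, read 8064, 8125 and 9905 in wildtype and 15032, 14751 and 15512 in anc1Δ (0.80, or 0.48 and not called as the mean of its probe sets), whereas RDN18-1, the small one, fell from 1738, 2452 and 1410 to 334, 385 and 353 (-2.35). The control probe sets along the small rRNA disagreed with each other. The last of 5 read 3403, 5416 and 3016 in wildtype and 597, 635 and 587 in anc1Δ, while the first read 1408, 2422 and 1842 and then 2896, 2084 and 2439. The fall of RDN18-1 thus held for some stretches of that RNA only. As mature rRNAs, tRNAs and snoRNAs have no poly(A) tail either, an rRNA, tRNA or snoRNA value is a hybridisation signal and not a transcript count.

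**Figure D4:**
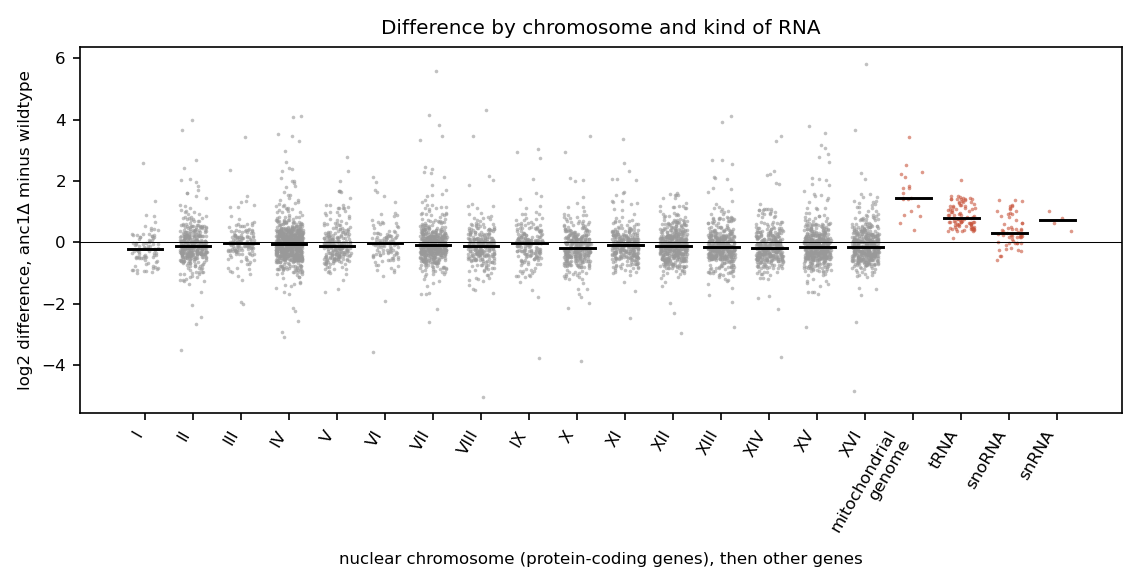
Log2 difference (anc1Δ minus wildtype) of protein-coding genes on each nuclear chromosome and of genes of the mitochondrial genome, tRNA, snoRNA and spliceosomal snRNA, 1 point per gene with bars at the medians. The nuclear chromosomes have medians of -0.21 to -0.01 and the mitochondrial genome 1.46.

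Place on the nuclear chromosomes showed little in the medians. The median over all genes of a chromosome ran from -0.21 on chromosome I to -0.01 on chromosome IX. The share of genes lower ran from 9.03% on chromosome III to 19.1% on chromosome I. Of the 67 protein-coding genes measured within 5 genes of a chromosome end, 13.4% rose and 17.9% fell, with a median of 0.01. Of the 134 lying 6 to 10 genes from an end, 11.9% rose and 18.7% fell, with a median of -0.07. Of the 4368 more than 40 genes from an end, 9.23% rose and 12.5% fell, with a median of -0.12. Of 15 genes of silent chromatin none rose and 3 fell, among them RAP1, the telomere-binding protein (-0.77), and ABF1, a general regulatory factor (-0.97).

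Genes of phosphate supply and of mating were among the 20 largest falls. SPL2, a small inhibitor of low-affinity phosphate uptake, read 657, 601 and 545 in wildtype and 17.4, 21.7 and 16.5 in anc1Δ (log2 difference -5.03 ± 0.14, SE). PHO84, the high-affinity transporter, fell from 4165, 4907 and 4490 to 644, 777 and 575 (-2.77). The genes of polyphosphate synthesis fell with them, with VTC3 at -2.58, VTC4 at -1.78, VTC1 at -1.51 and VTC2 at -0.97. In total 12 of 18 phosphate genes fell and none rose.

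The regulators of the phosphate pathway were less changed. PHO81, the inhibitor of the Pho80-Pho85 kinase and itself a target of the pathway, fell from 572, 561 and 579 to 257, 270 and 275 (-1.09). PHO4, the activator, read 226, 240 and 308 against 187, 229 and 200, and PHO85, the kinase, 413 to 436 against 361 to 413, and neither was called. PHO87, a low-affinity transporter outside the list and named after its values were seen, rose from 268, 217 and 202 to 495, 530 and 567 (1.22).

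All 7 a-specific genes fell (median -2.61), as did 7 of the 10 haploid-specific genes and 11 of 25 genes of pheromone signalling and response (median -0.51). FAR1, a haploid-specific gene that arrests cells before mating, read 291, 350 and 432 in wildtype and 22.8, 26.0 and 24.2 in anc1Δ (-3.86), and BAR1, the protease that destroys α-factor, fell from 986, 1147 and 1139 to 73.8, 88.4 and 77.1 (-3.77). Of the haploid-specific genes SST2, which damps the pheromone signal, fell from 247, 282 and 293 to 35.2, 34.9 and 36.7 (-2.94), and HO, the mating-type endonuclease, from 183, 249 and 376 to 51.6, 60.2 and 50.8 (-2.25). RME1, an inhibitor of meiosis on the same list, rose from 553, 606 and 636 to 1114, 1083 and 1261 (0.95). In the pheromone list AGA1, the anchor of the a-agglutinin, fell from 641, 694 and 701 to 52.3, 47.2 and 54.8 (-3.72), and STE12, the activator of pheromone-responsive genes, fell by 0.92. The strains did not overlap in any of these.

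Several genes of NAD synthesis were lower. Of 14 genes for NAD precursors and biotin 8 fell, none rose and 6 were not called. With no fold limit 10 were lower and 2 higher. BNA5, BNA1 and BNA4, enzymes of the kynurenine route from tryptophan to NAD, had log2 differences of -2.31, -2.15 and -2.05, BNA1 falling from 942, 887 and 783 to 191, 206 and 191. The route's last enzyme BNA6 fell by 0.85. BIO2, biotin synthase, fell from 436, 296 and 243 to 96.4, 104 and 96.5 (-1.67). NRT1, which imports nicotinamide riboside, fell by 0.94.

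Amino acid pathways went different ways. ARO10 and ARO9, which break down aromatic amino acids, had log2 differences of -2.58 and -1.38, ARO10 falling from 177, 309 and 293 to 43.5, 40.6 and 42.7. Among 11 genes for branched-chain amino acids 4 fell and none rose, among them LEU9, a leucine synthesis enzyme (-1.69), and BAT2, the cytosolic transaminase (-1.02). Of 6 histidine genes 3 fell, namely HIS4 (-0.97), HIS5 (-0.92) and HIS2 (-0.89). Of 10 genes of arginine synthesis and breakdown 3 rose and 1 fell. The synthesis genes ARG3 and ARG1 rose, ARG3 from 26.5, 26.3 and 30.0 to 116, 83.5 and 135 (1.99) and ARG1 by 1.31, the other 6 of that kind were not called, and of the breakdown enzymes CAR1 rose by 0.94 and CAR2 fell by 0.83. In sulfur metabolism MET28, a regulator, rose by 2.05 and STR3, a cystathionine lyase, from 99.5, 72.0 and 91.1 to 234, 251 and 250, and the S-adenosylmethionine synthetases SAM2 and SAM1 fell (-0.89 and -0.82).

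Some genes for poor nitrogen sources were higher. GAP1, the general amino acid permease, rose from 120, 130 and 110 to 499, 513 and 444 (2.02), and PUT4, the proline permease, from 56.2, 46.3 and 52.0 to 248, 263 and 166 (2.11). Of the 23 genes for poor nitrogen sources 6 rose and none fell, with 1 called lower without wildtype replicate 2 or 3 or anc1Δ replicate 2. GAT1, one of their activators, rose by 0.73. The allantoate permease DAL5 read 51.1 to 64.9 in wildtype and 53.8 to 60.6 in anc1Δ, and the GABA permease UGA4 49.1 to 51.8 and 45.4 to 50.9, and neither was called.

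Iron genes went both ways, while the zinc genes called were all lower. Among 8 copper genes 1 rose and 1 fell (median -0.36). Of 30 iron genes 6 rose and 3 fell. FIT2, a cell wall mannoprotein that holds iron-siderophore complexes, rose from 182, 144 and 178 to 2346, 2327 and 2206 (3.78), and its relative FIT3 rose by 2.07. The siderophore transporters moved apart, with SIT1 higher by 1.12 and ENB1 lower, from 508, 452 and 478 to 174, 210 and 186 (-1.34). FTR1, the high-affinity iron permease, read 496 to 556 in wildtype and 502 to 546 in anc1Δ. Without anc1Δ replicate 3, 5 iron genes were called lower. Of 13 zinc genes 5 fell and none rose, IZH4, a membrane receptor-like protein, from 375, 357 and 311 to 45.6, 58.1 and 50.4 (-2.76), together with the zinc transporters ZRT1 (-0.92) and ZRT2 (-0.84).

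Genes of DNA replication were lower as a group. Of 45 measured 20 fell and none rose, with a median of -0.55, and with the arrays centred on their medians 13 fell. MCM7 and MCM3, subunits of the replicative helicase, fell from 209, 253 and 313 to 105, 111 and 103 (-1.26) and from 133, 135 and 141 to 63.2, 56.4 and 56.9 (-1.21). POL30, the sliding clamp PCNA, fell from 392, 493 and 534 to 247, 218 and 226 (-1.03), and RFA1, the large subunit of the single-strand binding protein, by 0.92. RNR1, the large subunit of ribonucleotide reductase, named after its values were seen, fell from 532, 668 and 849 to 346, 326 and 431 (-0.88).

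Of 19 genes on a list for the G2/M transition 14 fell and none rose (median -0.89). The largest fall on that list was PHO3, which codes for an acid phosphatase (-2.67). CLB1, a mitotic cyclin, fell from 229, 319 and 314 to 88.6, 85.3 and 90.3 (-1.69), and CHS2, the chitin synthase of the septum, from 253, 294 and 344 to 96.8, 96.5 and 93.2 (-1.63). CDC5, the polo kinase, fell by 1.18, and SWI5, the factor that turns on genes in late mitosis, from 175, 174 and 185 to 64.7, 58.5 and 69.1 (-1.47). The tubulin genes TUB1 and TUB2 fell as well (-0.79 and -0.78).

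The genes of cell separation, which act in daughter cells after mitosis, went the other way. Of 12 measured 5 rose and none fell, with 1 called lower without wildtype replicate 1. DSE4, a glucanase that dissolves the septum, rose from 288, 320 and 340 to 1127, 1034 and 1382 (1.89). PRY3, a cell wall protein, rose by 1.16, DSE1 by 1.01, DSE3 by 0.71 and CTS1, the endochitinase, by 0.65. Cell cycle position was not measured on these arrays, and a difference in the share of cells per phase and one in RNA per cell cannot be told apart in bulk samples.

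In the growth lists the called genes were lower, apart from RPN4 of the proteasome list. For the ribosomal proteins and ribosome assembly the share lower did not exceed the 12.4% of all genes. Of 80 ribosomal protein genes 9 fell and none rose (11.2% lower, median -0.19). Of the 9, RPS0B fell by 1.31 and the others ran from -0.76 for RPL13A to -0.60 for RPL21B. Of 65 ribosome assembly genes 4 fell (6.15%, median -0.25). That count became 16 without wildtype replicate 1, 2 without wildtype replicate 2 and 1 without wildtype replicate 3 or anc1Δ replicate 2. Of 20 genes of RNA polymerases I and III 4 fell and none rose (median -0.42), of 19 tRNA synthetases 3 fell (-0.47) and of 22 translation factors 5 fell (-0.34). Without wildtype replicate 1 the first of these counts became 7 and the second 6, and without anc1Δ replicate 1 or 3 the second became 5. With no fold limit 12, 12 and 10 genes of these lists were lower. Of 34 proteasome genes only RPN4 was called. RPN4, the activator of the proteasome genes, rose from 349, 392 and 230 to 883, 816 and 776 (1.38), while the median of the list was -0.04.

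Of 22 genes of purine synthesis 14 fell, with a median of -0.81. AAH1, adenine deaminase, fell from 560, 719 and 687 to 202, 181 and 173 (-1.82). ADE13 (-1.41) and ADE6 (-1.19), enzymes of the pathway, fell, as did the inosine monophosphate dehydrogenases IMD4 (-1.23), IMD2 (-1.06) and IMD3 (-0.94), which are close copies of each other. In lipid synthesis 9 of 25 sterol genes fell and none rose. ELO1, which elongates medium-chain fatty acids, fell from 1313, 1297 and 1568 to 379, 327 and 356 (-1.97), and its relatives ELO3 and ELO2 fell as well (-0.94 and -0.87).

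**Figure D5:**
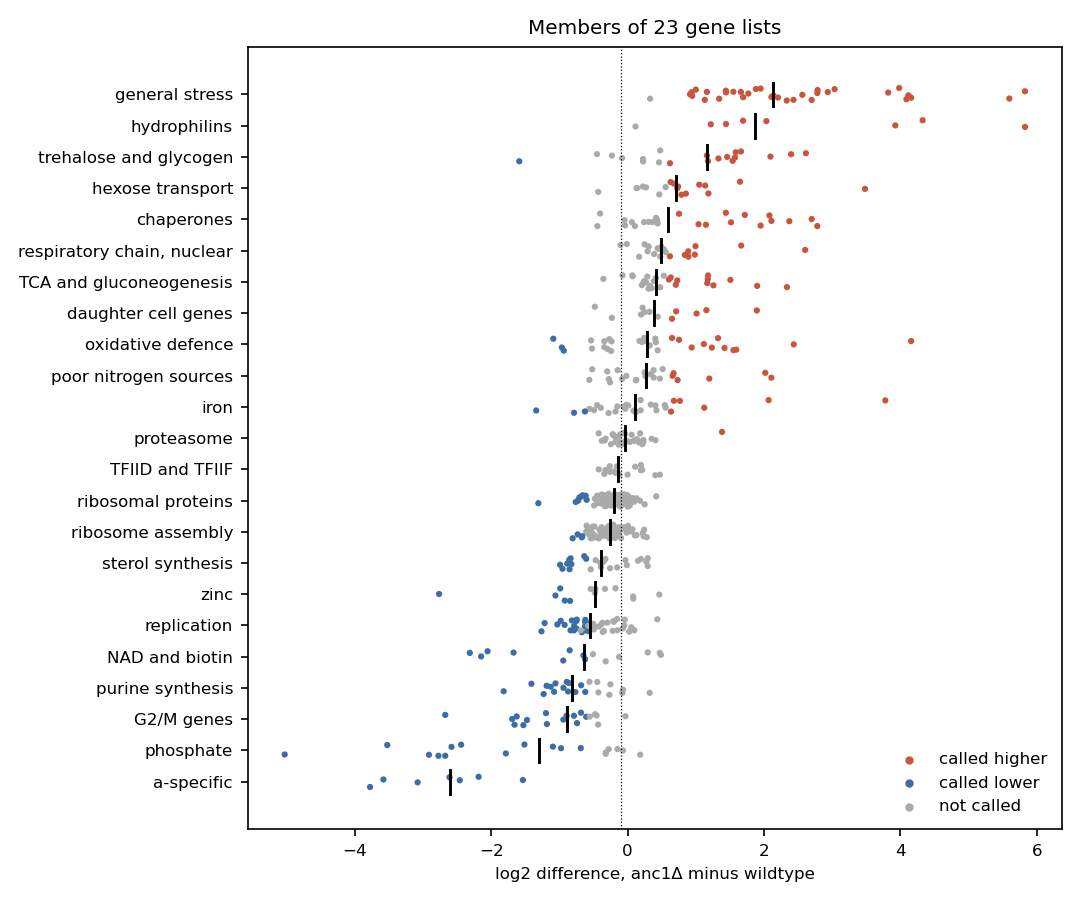
Log2 difference (anc1Δ minus wildtype) of each member of 23 gene lists, coloured by call, with black bars at the list medians and a dotted line at the median of all genes. The medians run from 2.14 for general stress genes to -2.61 for a-specific genes.

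The subunits of Anc1's own complexes differed between complexes in how many were called. None of the 16 measured genes of TFIID and TFIIF was called in the limma fit. Nor were any called with an R version of the local pooled error (LPE) test that the study's methods name. In limma 7 of the 16 had an unadjusted p under 0.05. With no fold limit 2 of them were higher and 3 lower. TAF1, the largest TFIID subunit, read 210 to 227 in wildtype and 213 to 219 in anc1Δ. Of the 38 remodeller subunits 2 rose and 3 fell, with 1 rise left without wildtype replicate 3. Among the falls was ARP4, an actin-related subunit of INO80 and other complexes, from 428, 400 and 370 to 180, 165 and 175 (-1.20). Of 25 Mediator subunits only MED1 was called (-0.59), and its call was lost without wildtype replicate 2 (-0.53), without anc1Δ replicate 1 (-0.57) and with the arrays centred on their medians (-0.55). Of 16 subunits of NuA3 and related acetyltransferases 3 fell (18.8%) and 1 rose, with 5 falls without wildtype replicate 1. SAS3, the catalytic subunit of NuA3, fell from 183, 190 and 170 to 85.5, 78.5 and 71.0 (-1.21), and PDP3, another NuA3 subunit, fell by 0.83. EPL1, a subunit of the NuA4 acetyltransferase, rose by 0.91. In SAGA, a coactivator that shares subunits with TFIID, 2 of 13 genes fell (15.4%, against 12.4% of all genes) and none rose. These were HFI1 (-1.10) and the acetyltransferase GCN5 (-0.76). Of the other YEATS proteins, SAS5 fell by 0.74 and YAF9 overlapped between the strains at 149 to 202 and 186 to 188.

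Among 53 DNA-binding regulators 12 rose and 10 fell. XBP1, a repressor made by starved cells, rose from 142, 88.5 and 46.3 to 701, 724 and 629 (3.04). MSN4, which activates the general stress genes, rose from 458, 308 and 247 to 894, 838 and 736 (1.33), whereas its partner MSN2 read 196 to 233 in wildtype and 141 to 162 in anc1Δ and was not called. The glucose repressors MIG1 and NRG1 rose by 1.14 and 1.22, and NRG2, the relative of NRG1, fell from 367, 459 and 323 to 186, 177 and 174 (-1.08). FKH1, a forkhead factor of G2/M genes, fell by 1.08, and REB1, an essential factor that keeps promoters open, by 0.90.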

How the data were processed

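Total RNA was labelled by Affymetrix protocols for eukaryotes and hybridised to Affymetrix YG-S98 arrays. The values are the authors' deposited RMA intensity on a linear scale, background-corrected, quantile-normalized and summarised per probe set in that method, with no floor stated. The 60 control probe sets were left out, values were put on the log2 scale and the 3 untreated anc1 arrays were fitted against the 3 untreated wildtype arrays with limma 3.58.1 (R 4.3.3, lmFit and eBayes). P-values are two-sided and Benjamini-Hochberg adjusted over all 9275 probe sets. A call needs 1.5-fold besides an adjusted p below 0.05, the limits of the study's methods, which used the LPE test. The study also removed transcripts without expression in any experiment, by Absent and Present calls, which was not done here. The LPE results here come from an R version of that test and not from the study's S-Plus software. An exact permutation test of 3 against 3 cannot go below 0.1. Each gene was read from whichever of its probe sets was brightest on average over the 12 arrays. Of 9275 probe sets, 6504 named 1 gene, 328 several and 2443 none, and 315 genes had several probe sets, called in opposite directions in 5. Arrays carry no read depth, and their number limits the precision.

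Gene lists are described by counts and medians, with no test. The named genes were taken from the 20 largest rises and falls with strains that do not overlap, up to 8 called members a list, members of lists of at most 12, and the genes beside ANC1. Uncalled genes of larger lists and the copies set beside a called gene were added after their values were seen. Members and lists were chosen with earlier results of these data known. The treated arrays entered only the choice of probe sets and the alternative fit with all 12 arrays. Promoter motifs and sequences are not analysed here. The alternatives were leaving out each array, replicate number as a block, all 12 arrays, other centring, filters, thresholds, probe set choices and the LPE test.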

Additional observations from a re-analysis of the deposited data

How the results depend on the processing

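With no fold limit 2533 genes were called, 977 higher and 1556 lower, and with a limit of 2-fold 475, 309 higher and 166 lower. Leaving out single arrays gave 1270 to 1512 calls, 586 to 684 higher and 659 to 828 lower. With replicate number as a block there were 1331 calls, 630 higher and 701 lower, of which 1323 were shared, and same-numbered arrays of the strains deviated together at r = -0.09, -0.46 and -0.08, so the numbers did not pair the arrays. The LPE test called 1331 genes, 1194 of them shared, median centring 1278 and quantile normalization 1311. Median centring moved the median of all genes from -0.10 to -0.06 and the share of higher calls from 47.4% to 53.9%. Of 159 named genes followed across the settings, 158 were called in the main fit. A change of direction was thus unlikely from the start, and none was seen. Most genes named above as not called were not among the 159. A limit of 2-fold ended 46 calls of the genes followed, and each other setting changed at most 5. The probe-set mean ended those of OLI1, RDN25-1 and TLC1. Median centring ended that of GND1 (-0.57), as did leaving out anc1Δ replicate 2, and CYC7 lost its call without any 1 anc1Δ array (adjusted p = 0.058 to 0.068). Groups of 3 arrays limit the precision, and dim probe sets lie near the arrays' floor.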

Other observations

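Glycerol and oxygen genes showed smaller groups. Of 14 osmotic genes 4 rose and 1 fell. GUT2, the mitochondrial glycerol phosphate dehydrogenase, rose by 1.62, GPP2, which makes glycerol from its phosphate, from 681, 743 and 781 to 1586, 1481 and 1770 (1.13), and the glycerol importer STL1 by 1.08, while SHO1, a membrane sensor of the osmotic pathway, fell by 0.79. Of 14 genes of heme and low oxygen 3 rose and 5 fell. HEM13, a heme synthesis enzyme that is raised when oxygen is low, fell from 314, 321 and 293 to 92.7, 95.6 and 101 (-1.68), and ANB1, the low-oxygen form of a translation factor, by 1.01. NCE103, carbonic anhydrase, rose from 348, 360 and 347 to 805, 700 and 736 (1.08). Without anc1Δ replicate 3 only 1 of these 14 genes was called higher.

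Cell surface and export genes moved both ways. Of 35 cell wall genes 4 rose and 6 fell. PIR3, a heat-shock-related wall protein, rose from 124, 96.8 and 64.1 to 907, 941 and 970 (3.36) and PST1, raised by wall damage in wildtype yeast, by 2.01, while TIR1, a cold-shock mannoprotein, fell from 1418, 1321 and 1536 to 427, 516 and 439 (-1.63) and GAS3 by 1.27. Of 23 genes of drug export and its regulators 6 rose and 3 fell. The largest rise among them was CIN5, a transcription factor and not an exporter (3.55). PDR12, the exporter of weak acids, was higher by 1.27 and QDR2, a multidrug transporter, lower by 1.55. Of 4 water and glycerol channels 2 rose, the aquaporin AQY1 from 94.6, 74.4 and 65.2 to 1043, 1031 and 869 (3.66).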
